A study of Homo sapiens with 22 samples.

Results

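The HOX cluster genes are the homeobox genes of the HOXA, HOXB, HOXC and HOXD clusters, which are among the best known targets of WDR5 and the MLL methyltransferases. Members were chosen by name, and 38 of the 20163 protein-coding genes of the annotation were used, 10 in HOXA, 10 in HOXB, 9 in HOXC and 9 in HOXD. The clusters run from the first to the last of these genes, over 99.7 kb on chromosome 7 (chr7:27139973-27239710), 200.2 kb on chromosome 17 (chr17:46605888-46806112), 117.2 kb on chromosome 12 (chr12:54332615-54449814) and 98.2 kb on chromosome 2 (chr2:176957449-177055635) of hg19 (GRCh37). Peaks of N-MYC and of WDR5 were taken anywhere in the clusters or within 1 kb of a transcription start site (TSS) of a member, and 15 of the 38 genes had such a peak at a TSS in at least 1 of 16 libraries.

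CHP-134 and IMR-32, both human neuroblastoma lines with amplified N-MYC, were assayed by ChIP-seq, which sequences the DNA that an antibody brings down together with its protein, with antibodies against N-MYC and against WDR5. CHP-134 cells were treated for 4 h with DMSO, the solvent, or with a compound that the sample labels name in different ways and that is not identified here, and 3 libraries were made per antibody and treatment. IMR-32 cells were untreated, and 2 libraries per antibody were analysed, with the numbers 1 and 2 (N-MYC) or 1 and 3 (WDR5). The lines were sequenced on different instruments, with paired ends read for IMR-32 alone, so that cell line and sequencing run cannot be told apart.

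HOX genes encode homeodomain transcription factors that give cells their position along the body axis, and genes with the same number in different clusters are paralogues that arose when the clusters were duplicated. WDR5 is a subunit of the MLL and SET methyltransferase complexes, which mark histone H3 at active promoters, and Polycomb complexes keep HOX genes silent in cells that do not use them. MYC proteins bind DNA together with MAX, most strongly at the E-box CACGTG, and also contact WDR5 directly.

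Promoters of HOX genes often carried this E-box. CACGTG, which reads the same on both strands, lay between 250 bases before and 50 bases after the canonical TSS of 19 of 38 HOX genes (50.0%), against 1742 of 19862 protein-coding promoters of the same 300-base length (8.77%). By cluster it was found at 4 of 10 HOXA, 4 of 10 HOXB, 5 of 9 HOXC and 6 of 9 HOXD promoters. At all 19 promoters the copy nearest to the TSS began before it, from 3 to 200 bases away, with a median of 83 bases. The HOX promoters had a lower GC content than all promoters, with a median of 55.3% against 63.7%, while the ratio of observed to expected CpG was similar, with a median of 0.828 against 0.777. A CCAAT box, searched as CCAAT on both strands within 30 bases of the E-box after the sequences had been seen, lay beside 10 of the 19 HOX E-boxes (52.6%) and beside 183 of the 1742 (10.5%). The 30 bases around the E-box are shown for a selection of genes whose peaks are described below and of paralogues, 5′ to 3′ on the strand of the gene, with CACGTG in capitals. Their GRCh37 positions are chr7:27183368-27183397 for HOXA5, chr17:46671201-46671230 for HOXB5, chr7:27196282-27196311 for HOXA7 and chr17:46688391-46688420 for HOXB7, all on the minus strand. On the plus strand they are chr12:54393824-54393853 for HOXC9, chr2:176987390-176987419 for HOXD9, chr2:176957306-176957335 for HOXD13, chr2:176981388-176981417 for HOXD10, chr2:177021976-177022005 for HOXD3 and chr2:177053331-177053360 for HOXD1.
HOXA5: ggacaacaaaagCACGTGattcgaagtcgt
HOXB5: ggtcaacaaaagCACGTGattccctaacgc
HOXA7: catgtgggcggtCACGTGctgcggcgagct
HOXB7: cgtgggcggggtCACGTGgtccggagagga
HOXC9: ggtaaatacgatCACGTGggggccggggag
HOXD9: ggtaaatatgatCACGTGggccgcgcgacc
HOXD13: cgttcctaccccCACGTGgccgcgcgcagc
HOXD10: caggctctggagCACGTGacccgagaggag
HOXD3: acaagtcccgacCACGTGattggcgaaata
HOXD1: gccggccagcgcCACGTGgccgcccccgcc

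Paralogues shared bases around the E-box in some pairs. Of the 24 flanking bases, HOXA5 and HOXB5 had 17 in common, HOXC9 and HOXD9 had 16, and HOXA7 and HOXB7 had 15. The other 8 pairs within a paralogue group shared 6 to 9 bases, and the 160 pairs from different groups shared 3 to 14, with a median of 7.0. Of these 3 pairs, HOXC9 and HOXD9 both had N-MYC peaks in both cell lines, HOXA7 had them in 3 DMSO libraries where HOXB7 had 1, and HOXA5 and HOXB5 had none in any library.

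A longer sequence is shown for a region on which the results turn, on the plus strand of GRCh37 around the strongest summit. It lies at chr12:54411950-54412249 in an intron shared by HOXC4 and HOXC6 transcripts, was listed for WDR5 in both cell lines, and holds no CACGTG.
HOXC4/HOXC6 intron: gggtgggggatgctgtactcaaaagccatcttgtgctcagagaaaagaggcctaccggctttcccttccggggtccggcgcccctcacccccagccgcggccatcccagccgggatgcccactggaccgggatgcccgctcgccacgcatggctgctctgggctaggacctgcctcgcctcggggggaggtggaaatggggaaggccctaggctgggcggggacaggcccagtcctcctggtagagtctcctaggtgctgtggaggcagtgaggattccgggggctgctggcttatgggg

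The lists give for each peak a fold enrichment over local background. Folds depend on each library and were ranked only within a list, as a percentile, the percent of peaks in the same list with a lower fold. The lists hold no read totals, so depth was unknown, and a site without a listed peak may still have held the protein below the authors' threshold. N-MYC lists held 15286, 9125 and 12283 peaks in DMSO, 11249, 2964 and 12313 with the compound, and 8286 and 5242 in IMR-32. WDR5 lists held 4891, 1758 and 1671 peaks in DMSO, 5973, 15 and 401 with the compound, and 1693 and 1258 in IMR-32. Replicate 2 with the compound stood apart, with the fewest peaks for both proteins, and its WDR5 list of 15 peaks had none in a HOX cluster.

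The share of HOX genes with an N-MYC peak was below that of all protein-coding genes in each of the 8 N-MYC libraries. In DMSO, 13, 9 and 11 of the 38 genes (34.2%, 23.7% and 28.9%) had an N-MYC peak within 1 kb, against 46.2%, 31.8% and 39.4% of all protein-coding genes. With the compound there were 8, 2 and 10 HOX genes (21.1%, 5.3% and 26.3%), against 36.2%, 11.6% and 38.7%. In IMR-32 there were 6 and 3 (15.8% and 7.9%), against 27.3% and 18.9%. For WDR5 the share of HOX genes lay on either side of that of all genes. In DMSO, 7, 4 and 2 HOX genes (18.4%, 10.5% and 5.3%) had a WDR5 peak, against 19.5%, 8.5% and 7.4% of all genes. With the compound the numbers were 7, 0 and 4 (18.4%, 0% and 10.5%), against 16.7%, 0.1% and 2.0%, and in IMR-32 they were 1 and 2 (2.6% and 5.3%), against 8.2% and 6.1%. Genes within a cluster lie close together and are not independent of each other, so these shares are given without a test.

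**Figure D1:**
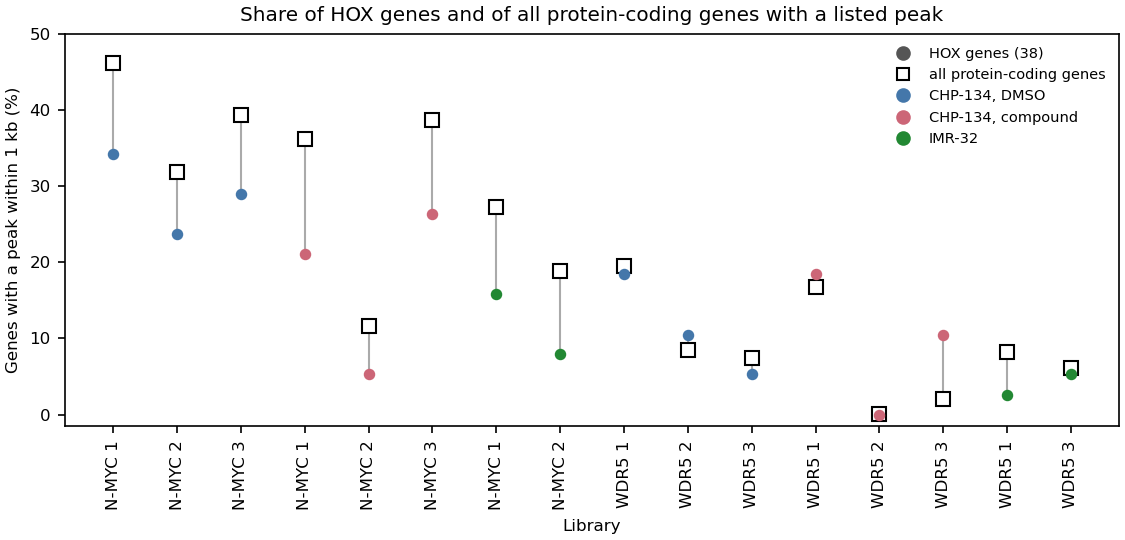
Percent of genes with a listed peak within 1 kb of a TSS (vertical axis) in each of 16 libraries (horizontal axis), with filled circles for the 38 HOX genes, colored by group, and open squares for 20163 protein-coding genes. In the 8 N-MYC libraries the HOX genes lie below all genes, and in the 8 WDR5 libraries they lie on both sides.

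Consensus peaks were merged from peaks that share at least 1 bp and had to be present in at least 2 libraries of a group. In DMSO, 11 HOX genes had an N-MYC consensus peak (28.9%), where 39.0% of protein-coding genes had one, and 4 had a WDR5 consensus peak (10.5%), where 8.28% did. With the compound, 8 HOX genes had N-MYC (21.1%, against 30.8% of all genes). WDR5 was present at 4 HOX genes with the compound, HOXA7, HOXC9, HOXC13 and HOXD3 (10.5%), where 1.24% of all genes had it, a consensus that rests on replicates 1 and 3. In IMR-32, N-MYC was present at HOXC9, HOXD9 and HOXD10 (7.89%, against 15.9%), and WDR5 at HOXC4 and HOXC13 (5.26%, against 4.93%). Cobound sites, where consensus peaks of both proteins share at least 1 bp, lay at HOXA7, HOXC13 and HOXD3 in DMSO (7.89%, against 7.48% of all genes) and at HOXC9 and HOXC13 with the compound (5.26%, against 1.10%). No HOX gene was cobound in IMR-32, where 2.40% of protein-coding genes were.

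**Figure D2:**
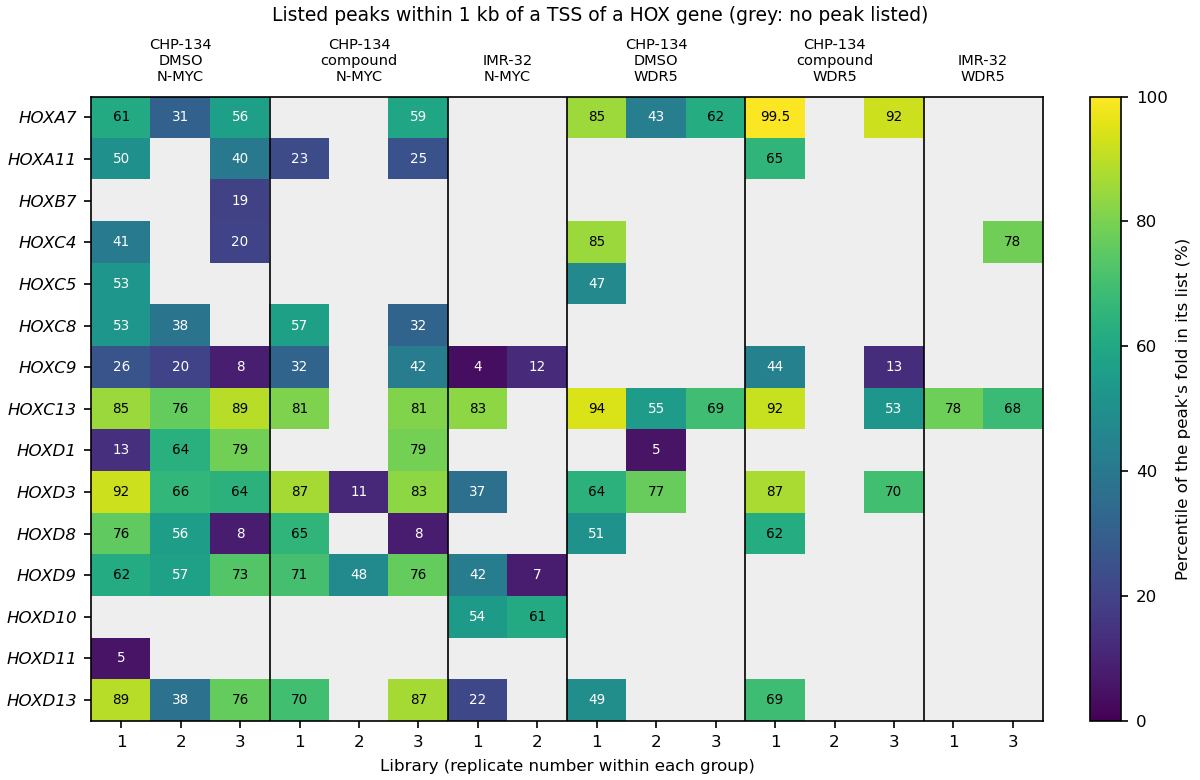
Percentile of the fold of the highest ranked peak within 1 kb of a TSS, for the 15 HOX genes with a peak (rows) in 16 libraries (columns, by group and replicate number), where grey means that no peak was listed. HOXC13 was listed in 13 libraries, and HOXB7 and HOXD11 in 1 library each.

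Many of the HOX E-boxes had no N-MYC peak nearby. Of the 1742 protein-coding genes with CACGTG in the promoter, 1171 (67.2%) had an N-MYC consensus peak in DMSO, and of the 18120 without it 6672 (36.8%). Among HOX genes these numbers were 7 of 19 (36.8%) with CACGTG, namely HOXA7, HOXC9, HOXC13, HOXD1, HOXD3, HOXD9 and HOXD13, and 4 of 19 (21.1%) without it. In IMR-32, the 3 HOX genes with an N-MYC consensus peak all had CACGTG in the promoter, which is 3 of 19 (15.8%), against 701 of 1742 genes (40.2%). At 11 of the 19 HOX promoters with CACGTG, HOXA4, HOXA5, HOXA9, HOXB3, HOXB4, HOXB5, HOXB7, HOXC5, HOXC11, HOXC12 and HOXD11, no group had a consensus peak of either protein.

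**Figure D3:**
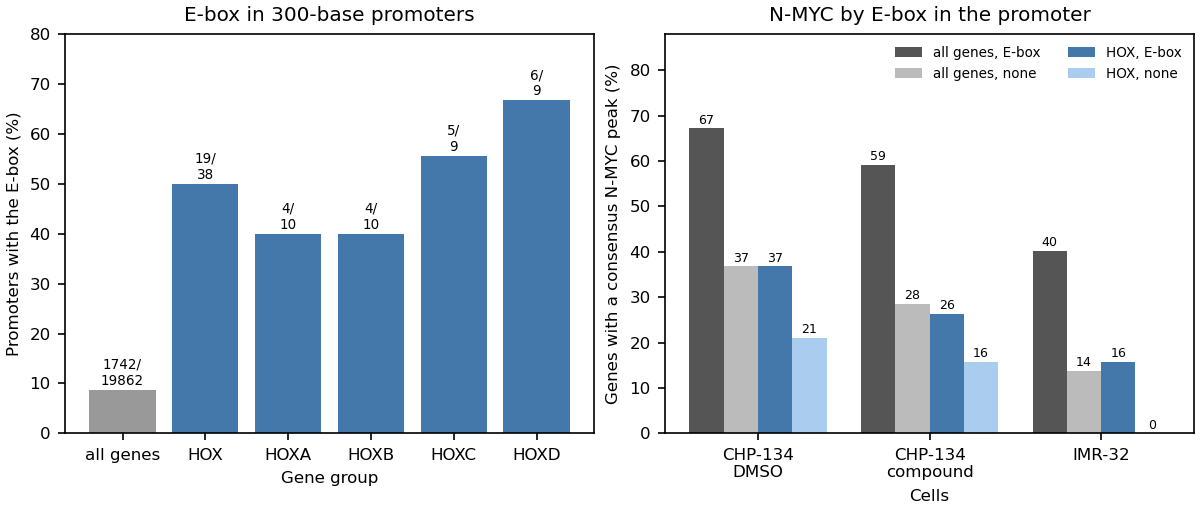
Left, percent of 300-base promoters that hold CACGTG, for all protein-coding genes, HOX genes and each cluster, with numbers of promoters above the bars. Right, percent of genes with an N-MYC consensus peak in each group, split by CACGTG in the promoter, where in each group the share of HOX genes is below that of all genes with the same kind of promoter.

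The peaks of all libraries merged into 20 regions, 2 in HOXA, 1 in HOXB, 7 in HOXC and 10 in HOXD. Of these, 17 lay within 1 kb of a TSS of a member, 11 had peaks of both proteins in some library, 9 had N-MYC only and none had WDR5 only. A peak in 1 library only made up 5 of the regions. Of the 20 regions 13 held CACGTG, and 11 had it within 100 bases of the strongest summit. By library, CACGTG lay within 100 bases of the N-MYC summit in 40.0%, 44.4% and 66.7% of HOX regions in DMSO, against 24.2%, 31.3% and 29.0% of all listed peaks. In IMR-32 these shares were 85.7% and 66.7%, of 7 and 3 HOX regions, against 32.1% and 37.9%. With the compound they were 12.5%, 0% and 45.5%, of 8, 2 and 11 HOX regions, against 26.7%, 45.4% and 28.3%.

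HOXC13, the gene at the 5′ end of its cluster whose product acts in hair and nail formation, had the most frequent peaks. N-MYC stood at percentiles of 84.9, 76.2 and 89.4 in DMSO, 80.6 and 81.1 in replicates 1 and 3 with the compound, and 82.9 in IMR-32 replicate 1. WDR5 stood at 94.4, 55.4 and 69.4 in DMSO, 91.7 and 52.6 in replicates 1 and 3 with the compound, and 78.1 and 68.0 in IMR-32. The ranges of the groups overlapped for both proteins, and N-MYC was high in each list that held the peak. Summits lay 148 to 213 bases before the TSS for N-MYC and 149 to 206 for WDR5. The mean summits of the 2 proteins in DMSO were 5.33 bases apart, and 3.16% of the 1426 cobound sites had a shorter distance, with a median of 102 bases over all of them.

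HOXA7, a gene of the middle of the HOXA cluster, was listed in CHP-134 and in no IMR-32 library. N-MYC was listed at percentiles of 61.2, 31.1 and 56.3 in DMSO and at 58.9 in replicate 3 with the compound. WDR5 was listed at 85.3, 42.6 and 62.0 in DMSO and at 99.5 and 92.4 in replicates 1 and 3 with the compound, so that both values with the compound were above all values in DMSO. Because the compound lists hold other peaks than the DMSO lists, the ranks were also taken among regions shared by the lists of 1 replicate number. Among 1666 regions shared in replicate 1, HOXA7 moved from percentile 77.3 to 98.3, and 76.4% of these regions had a lower difference. Among 223 shared in replicate 3 it moved from 44.6 to 87.7, and 91.9% had a lower difference. HOXC13 moved by -4.17 and -6.95 in the same comparisons. The mean DMSO summits of N-MYC and WDR5 at HOXA7 were 3.67 bases apart (2.59% of cobound sites had a shorter distance), and CACGTG lay 49 bases from the strongest summit, at the canonical TSS.

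**Figure D4:**
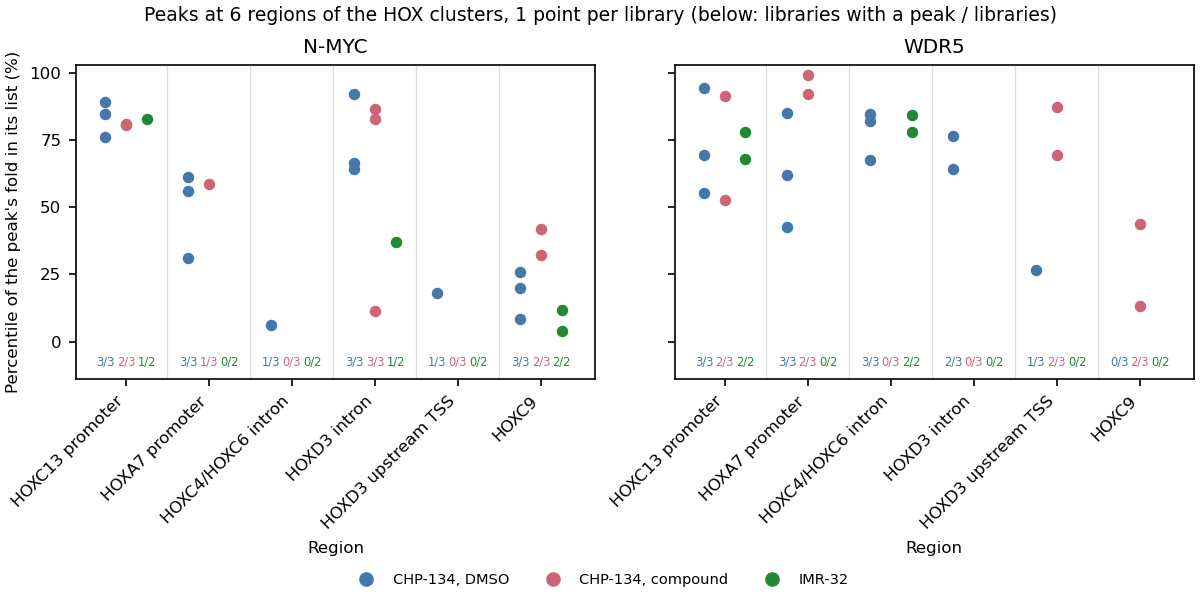
Percentile of the fold in its list (vertical axis) for N-MYC and WDR5 at 6 regions of the HOX clusters (horizontal axis), with 1 point per library and group and, below, the libraries with a peak over the libraries of the group. WDR5 at the HOXC4/HOXC6 intron was listed in 3 of 3 DMSO, 0 of 3 compound and 2 of 2 IMR-32 libraries.

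The intron of HOXC4 and HOXC6, genes whose spans overlap in the annotation, held a region with WDR5 in more lists than N-MYC. WDR5 was listed there at percentiles of 85.0, 82.3 and 67.7 in DMSO and of 84.5 and 78.3 in IMR-32, and in none of the 3 libraries with the compound. N-MYC was listed once, at 6.34 in DMSO replicate 1. The strongest summit lay 1385 bases into the gene from a TSS of HOXC4, and the region within 1 kb of a TSS of the noncoding gene ENSG00000273046. It counted for HOXC4 because the merged region, and single peaks in 1 DMSO and 1 IMR-32 library, reached to within 1 kb of that TSS. Loss from the compound lists was common for WDR5, since 354 of 772 regions with a peak in every DMSO list (45.9%) were in no compound list, and of the HOX regions 1 of 3 was lost. In replicate 1, where the compound list is longer than the DMSO list, 351 of the 735 DMSO peaks that ranked at least as high (47.8%) were missing with the compound.

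HOXC9, whose paralogue group acts in the trunk and limbs, showed the reverse order for WDR5. No DMSO or IMR-32 library listed WDR5 there, and with the compound it was listed at percentiles of 44 and 13.1 in replicates 1 and 3. Of the 231 WDR5 consensus regions with the compound, 22 (9.52%) were in no DMSO list, and of the 4 HOX regions this was 1. N-MYC at HOXC9 was weak in every group, at 26.1, 20.0 and 8.44 in DMSO, 32.2 and 41.8 in replicates 1 and 3 with the compound, and 3.81 and 11.9 in IMR-32. WDR5 summits lay 245 and 422 bases after the TSS, and N-MYC summits with the compound 315 and 333 bases before it. The cobound site with the compound thus joined overlapping peaks with separate summits. Over all groups, N-MYC summits lay from 333 bases before the TSS, in an exon of the noncoding gene HOXC-AS1, to 139 bases after it.

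HOXD3, an anterior gene that spans much of the 3′ part of its cluster, had peaks at 2 of its TSSs. At the downstream one, N-MYC was listed at 92.2, 66.4 and 64.3 in DMSO, 86.6, 11.4 and 83.1 with the compound, and 37.1 in IMR-32 replicate 1. WDR5 was listed in the same intron at 64.4 and 76.6 in DMSO replicates 1 and 2 and in no other library. The mean summits of the 2 proteins lay 471 bases apart, and 92.4% of cobound sites had a shorter distance, while CACGTG was 586 bases from the strongest N-MYC summit. At the upstream TSS, within 1 kb of a TSS of the noncoding gene HOXD-AS2, WDR5 was listed at 26.6 in DMSO replicate 2 and at 87.3 and 69.7 in replicates 1 and 3 with the compound. N-MYC was listed there once, at 18 in DMSO replicate 3. The WDR5 consensus at HOXD3 thus came from different regions in DMSO and with the compound.

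HOXD9 was listed for N-MYC in all 8 N-MYC libraries and for WDR5 in none. Its percentiles were 61.5, 57.1 and 73.1 in DMSO, 70.6, 47.9 and 76.2 with the compound, and 42.1 and 7.46 in IMR-32. Both IMR-32 values were below every CHP-134 value. HOXD10, its neighbor, had the opposite pattern, with N-MYC at 54.4 and 61.3 in IMR-32 and in no CHP-134 library. Summits at HOXD10 lay 100 and 114 bases before the TSS, over the E-box. Of 4054 N-MYC consensus regions in IMR-32, 350 (8.63%) were in no DMSO list, and of the 3 HOX regions this was the one at HOXD10.

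HOXD13, the most posterior gene of the cluster, which acts in digits, was listed for N-MYC at 89.2, 37.7 and 76.4 in DMSO, 69.6 and 86.7 in replicates 1 and 3 with the compound, and 21.6 in IMR-32 replicate 1. WDR5 was listed at 49.4 in DMSO replicate 1 and at 68.9 in replicate 1 with the compound. These were 2 separate peaks, with summits 915 bases after the TSS in DMSO and 189 bases before it with the compound. The highest ranked N-MYC summits fell at 2 places, 86 bases before the TSS near the E-box in DMSO replicate 1 and 661 to 781 bases after it in the other libraries. The 2 N-MYC values of replicate 1 thus belong to different places. The DMSO peak near the E-box, at 89.2, overlapped no N-MYC peak of compound replicate 1. Among 9658 N-MYC regions shared in replicate 1, the one at HOXD13 held only the lower ranked DMSO peak, after the TSS. This shared region moved from percentile 16.8 in DMSO to 65.7 with the compound. Of these regions, 99.1% had a lower difference. For the other HOX regions shared in replicate 1 this value ran from 19.7% (HOXA11) to 87.8% (HOXD9). Among 9421 shared in replicate 3 the HOXD13 region moved from 70.0 to 82.7, and 78.7% had a lower difference. HOXD8 was listed for N-MYC at 75.7, 56.1 and 7.82 in DMSO and 65.3 and 7.66 in replicates 1 and 3 with the compound. For WDR5 it was listed at 51.2 and 61.8 in replicate 1 of each, in 2 peaks that did not overlap. HOXD1, the anterior end of the cluster, was listed for N-MYC at 13.3, 63.5 and 78.9 in DMSO and at 79.2 in replicate 3 with the compound, and for WDR5 at 5.26 in DMSO replicate 2. Neither HOXD8 nor HOXD1 was listed in IMR-32. Of 6969 N-MYC regions with a peak in every DMSO list, 2128 (30.5%) were in no IMR-32 list, and of the 8 HOX regions 3 were, those at HOXA7, HOXD1 and HOXD8. For WDR5 these numbers were 219 of 772 (28.4%) and 1 of 3, at HOXA7.

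HOXA11, HOXC8 and HOXC4, genes of the posterior, middle and anterior axis, had N-MYC peaks in CHP-134 only. HOXA11 was listed for N-MYC at 50.0 and 40.3 in DMSO replicates 1 and 3 and at 23.1 and 25.3 in replicates 1 and 3 with the compound, in an intron 956 to 1135 bases after the TSS, and for WDR5 at 65.4 in replicate 1 with the compound. HOXC8 was listed for N-MYC at 52.7 and 38.4 in DMSO replicates 1 and 2 and at 56.8 and 32.1 in replicates 1 and 3 with the compound, over its coding exon. The canonical TSS of HOXC4 had N-MYC at 41.2 and 20.2 in DMSO replicates 1 and 3. Single libraries listed N-MYC at HOXC5 (52.7), HOXD11 (5.09) and HOXB7 (19.3), all in DMSO, and WDR5 at HOXC5 (47.0). The peak at HOXB7 was the one peak of either protein in the HOXB cluster, the longest of the 4, and 15 of 16 lists had none there. No library had a peak at a TSS of the remaining 23 genes. These were 8 HOXA genes (HOXA2, HOXA3, HOXA4, HOXA5, HOXA6, HOXA9, HOXA10 and HOXA13), 9 HOXB genes (HOXB1, HOXB2, HOXB3, HOXB4, HOXB5, HOXB6, HOXB8, HOXB9 and HOXB13), 4 HOXC genes (HOXC6, HOXC10, HOXC11 and HOXC12) and 2 HOXD genes (HOXD4 and HOXD12). Away from member TSSs, N-MYC was listed in an exon of HOTAIR, the noncoding RNA gene of the HOXC cluster, at 47.6 in DMSO replicate 1, before HOXD12 at 34.6 in replicate 3 with the compound, and in HOXD3 at 64.7 in IMR-32 replicate 1.

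Differences between groups were tested over libraries with two-sided exact permutation tests, which cannot go below p = 0.1 with 3 libraries in one group and 2 or 3 in the other, so that no difference could pass 0.05. The study's methods describe its ChIP-seq experiments as independent repeats, and the p-values measure the spread between these libraries. With the compound, 17.5% ± 11 of HOX genes had N-MYC, against 28.9% ± 5.26 in DMSO (SD, n = 3 each), a difference of -11.4 percentage points with overlapping groups (exact permutation test, p = 0.2). The share was lower with the compound in each of the 3 pairs of libraries with the same replicate number, in which the smallest exact p is 0.25. Without compound replicate 2 the difference was -5.26, and after the share of all protein-coding genes was subtracted from each library, an alternative added once the data had been seen, it was -1.12 (exact permutation test, p = 0.7). The peaks in HOX clusters numbered 0.846 ± 0.154 per 1000 listed N-MYC peaks with the compound and 1.03 ± 0.0387 in DMSO, and the groups did not overlap (exact permutation test, p = 0.1), with the lower value with the compound in each of the 3 pairs. The difference of -0.184 became -0.0987 without compound replicate 2. The median percentile of these peaks was 47.0 ± 16 with the compound and 49.2 ± 8.12 in DMSO (exact permutation test, p = 0.8), a difference of -2.24 that turned to 6.44 without compound replicate 2. For WDR5, 9.65% ± 9.24 of HOX genes had a peak with the compound and 11.4% ± 6.62 in DMSO, a difference of -1.75 percentage points that was smaller than the spread (exact permutation test, p = 1.00) and turned to 3.07 without compound replicate 2 and to 3.78 after the same subtraction. At the level of regions, none of the 8 HOX regions with N-MYC in every DMSO list was missing from all compound lists, where 143 of 6969 regions (2.05%) were, and none of the 8 HOX consensus regions with the compound was new, where 106 of 8368 (1.27%) were.

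Between the cell lines, 28.9% ± 5.26 of HOX genes had N-MYC in DMSO-treated CHP-134 (SD, n = 3) and 11.8% ± 5.58 in IMR-32 (SD, n = 2), without overlap (exact permutation test, p = 0.1). The N-MYC lists of CHP-134 were also longer, and after the share of all protein-coding genes was subtracted the difference of 17.1 percentage points became 1.11 (exact permutation test, p = 0.6). With only the 2964 strongest peaks of each list, also an alternative added once the data had been seen, it was 6.14 (exact permutation test, p = 0.1). Peaks in HOX clusters per 1000 listed N-MYC peaks were 1.03 ± 0.0387 in DMSO-treated CHP-134 and 0.709 ± 0.193 in IMR-32, without overlap (exact permutation test, p = 0.1), and the difference of 0.322 became 0.186 without IMR-32 replicate 2. The median percentile of these peaks was 49.2 ± 8.12 and 27.0 ± 21.3 with overlap (exact permutation test, p = 0.3), and the difference of 22.3 became 7.20 without IMR-32 replicate 2 and 37.4 without replicate 1. For WDR5 the shares were 11.4% ± 6.62 and 3.95% ± 1.86, and the groups overlapped (exact permutation test, p = 0.3). The difference of 7.46 percentage points became 3.95 without DMSO replicate 1 and 2.80 after the subtraction. Both HOX consensus regions of WDR5 in IMR-32, at HOXC13 and in the HOXC4/HOXC6 intron, were listed in DMSO. Of all 993 such regions 218 (22.0%) were in no DMSO list, and 2 regions are too few to differ from this share. In DMSO, N-MYC was listed at more HOX genes than WDR5, by 17.5 percentage points (exact permutation test, p = 0.1), but after the subtraction the order turned, with a difference of -9.78. With each list cut to its strongest peaks the difference was 1.75 (exact permutation test, p = 0.6). These caps were 2964 peaks for N-MYC and 1258 for WDR5, so the lists were still not equal in number.

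Other genes of the HOX system were described from lists of names, for which the shares of all protein-coding genes with an N-MYC consensus peak were 39.0% in DMSO, 30.8% with the compound and 15.9% in IMR-32, and those with WDR5 8.28%, 1.24% and 4.93%. Of 9 genes for TALE homeodomain proteins, which bind DNA beside HOX proteins, PBX3 and PKNOX1 had an N-MYC consensus peak in DMSO (22.2%), at mean percentiles of 34.7 and 56.9, and PBX3 had WDR5 (11.1%), at 89.4. With the compound no TALE gene had WDR5, and in IMR-32 PBX3 and PKNOX2 had it (22.2%), at 42.4 and 23. No EVX gene, at the ends of the HOXA and HOXD clusters, and none of 6 ParaHox genes, relatives of the HOX genes outside the clusters, had a consensus peak in any group. Of 12 Polycomb genes, 9 had N-MYC in DMSO (75.0%), 8 with the compound (66.7%) and 6 in IMR-32 (50.0%), where EZH2, the histone methyltransferase, stood at mean percentiles of 92.7, 80.7 and 78.9. WDR5 was present at EZH1, EZH2, RNF2 and CBX8 in DMSO (33.3%), at none of the 12 with the compound, and at JARID2 in IMR-32 (8.33%). Of 27 long noncoding RNA genes inside the clusters, 4 had N-MYC in DMSO (14.8%), HOXA11-AS, HOXC13-AS, HOXC-AS1 and HAGLR, against 2422 of 18702 such genes in all (13%), and each of these lies beside a HOX gene named above.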

How the data were processed

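ChIP-seq peak lists of N-MYC and WDR5 were analysed, 1 list per library. By their methods, the authors removed adapters with Cutadapt, used Bowtie2 for alignment to hg19 and took MACS2 peaks that passed a q-value of 0.05, so every value is conditional on that threshold. Program versions and the control library are not given in the sources used here. Each deposited peak carries a fold, which is a linear ratio over local background, a −log10 p-value and a −log10 q-value, a score that the authors' caller derives from the q-value, and the deposited offset of its summit. The fold was ranked within a list. The q-value chose the strongest summit, and the score was not used. Depth is unknown, so no interval could be given, and IgG libraries were not analysed here.

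A gene had a peak when any base of it lay within 1 kb of a TSS of any of its transcripts in GENCODE 44 lifted to GRCh37, whose sequence was read without conversion. Groups and replicate numbers came from the labels. Groups were compared by exact permutation tests in Python 3.11.15, pandas 2.3.3 and numpy 2.4.6, and functions were tested on simulated data. Replicate numbers paired DMSO and compound lists: deviations over genes correlated at 0.20, 0.25 and 0.19 for N-MYC and 0.27, 0.16 and 0.18 for WDR5. Between the N-MYC and WDR5 lists of DMSO they correlated at 0.11, 0.11 and 0.053, the last below the cut of 0.1 used for pairing. Members and gene lists were chosen with earlier results of these data known. Every member with a peak was named, members called in at least 2 libraries of a group were given per library, and other genes were named where they had a consensus peak. Alternatives were the distance, TSS set, summit rule, q-value, consensus rule, cluster edges, mean for median, replicate block and leaving out libraries. Others were a cap on the number of strongest peaks per list and subtraction of all genes. Not all HOX region sequences are reported here.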

Additional observations from a re-analysis of the deposited data

How the results depend on the processing

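Of 100 alternative values of the 9 differences between groups, 90 kept the direction, 8 reversed it and 2 were 0. None could have an exact permutation p under 0.05, since the smallest possible p is 0.1 or more. The 2 settings added after the data were seen reversed 3 of them. One of these capped each list at its strongest peaks, at most 2964 for N-MYC and 1258 for WDR5. With this cap the difference in the share of HOX genes with N-MYC between compound and DMSO was 0.877. After subtraction of the share of all protein-coding genes, that for WDR5 was 3.78 and that of N-MYC minus WDR5 in DMSO was -9.78. The difference in the share with WDR5 between compound and DMSO was 0 at 500 bp and with the cap. The cap did not make these WDR5 lists equal in number, since compound replicates 2 and 3 held only 15 and 401 peaks. With a −log10 q of at least 5, the difference in median percentile between compound and DMSO was 0.0229. Leaving out each replicate in turn, the share with WDR5 differed by -6.14 to 3.07 and the median percentile of N-MYC peaks by -9.25 to 6.44, reversed without compound replicate 2 (3.07 and 6.44), without DMSO replicate 1 for the first (1.75) and without DMSO replicate 2 for the second (1.20). With the replicate block, in which samples were paired by number, the smallest p is 0.25, so it could change no call. The block values were -11.4 and -1.75 for the shares with N-MYC and WDR5, -0.184 per 1000 peaks and -2.24 in percentile. For N-MYC minus WDR5, where the pairing by number missed its cut, the block value was 17.5.

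Counts of genes with a consensus peak moved by over 1.5 times in 9 of 45 settings. The 4 HOX genes with WDR5 in DMSO became 2 at 500 bp, 8 with a peak in 1 library, and 2 to 4 without each replicate in turn, the 2 without replicate 1. The 3 cobound genes became 8 with a peak in 1 library. In IMR-32, the 3 genes with N-MYC became 1 at a −log10 q of at least 5 and 6 with a peak in 1 library, and the 2 genes with WDR5 became 1 at 500 bp, with canonical TSSs and with the summit rule. A consensus of IMR-32 without 1 library could not be had. The cause of these changes was not tested.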
